A study of Mus musculus with 128 samples.

Results

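The late change of the mouse aorta was described from 8 libraries, 4 labelled 24 months and 4 labelled 30 months, out of 128 RNA-seq libraries that cover 8 tissues at 6, 15, 24 and 30 months of age with 4 libraries per tissue and age. All mice were wild-type, untreated C57BL/6J males, so the groups at 24 and 30 months differed in their labels by age alone. The libraries were those in the columns for these ages in the aorta table, and all genes expressed in that table were taken, 14980 of 55285 gene symbols after a filter on low reads. The labels do not say that libraries of 1 age came from separate mice, so the p-values measure the spread between these libraries, which may be technical. Neither the stretch of aorta taken, nor the treatment of the fat around it, nor the hour of collection is stated in the labels.

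The aortic wall has an endothelium that lines the lumen, a media of smooth muscle cells between elastic lamellae, and an outer layer of fibroblasts. In mice the thoracic aorta is embedded in perivascular fat that resembles brown fat: its cells burn fatty acids in mitochondria and release the energy as heat through uncoupling protein 1. Stiffening, loss of elastic fibres and a weaker endothelium are the textbook features of an ageing aorta.

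The markers of the wall and of perivascular fat were both present. Values here are normalised reads, which are the reads of a library divided by a size factor of that library. Acta2, smooth muscle actin, was between 15383 and 33522 in the 8 libraries, and Pecam1, an endothelial adhesion molecule, between 2169 and 3160. Ucp1, uncoupling protein 1, was between 29459 and 102753, and 11 of 12 brown adipocyte markers passed the filter. Markers of heart muscle varied widely within each age: their sum was 280.6, 1502, 19310 and 3531 in 24-month libraries 1 to 4 and 26740, 12130, 30150 and 598.3 in 30-month libraries 1 to 4, and Myh6, a cardiac myosin, was as low as 3.671 in 30-month library 4. Of 10 heart muscle markers tested 0 passed the threshold set out below. All 10 had positive log2 changes from 24 to 30 months, with a median of 1.65. That median ran from 0.44 to 3.36 with 1 of these 8 libraries left out. The part of heart muscle in the results below was not tested. None of 8 epithelial markers passed the filter. In whole tissue, fewer cells of a type and less RNA per cell cannot be told apart.

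The 8 libraries held between 13779202 and 35592835 reads. The deepest was 30-month library 1, and the next held 17466899. The median rank correlation of an aorta library with the others was between 0.962 and 0.979, and no 2 libraries of 1 age agreed within sampling noise.

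Between 24 and 30 months, 477 of 14980 genes passed an adjusted p of 0.05 (3.18%; limma-trend with Benjamini-Hochberg adjustment). At 30 months 213 were higher (1.42%) and 264 lower (1.76%). The median size of the change was 0.61 on the log2 scale for the higher genes and -0.49 for the lower ones, and 91 changed at least 2-fold. In 470 of the 477 the 4 libraries of each age did not overlap, against 19.1% of all genes tested (9.33% higher and 9.77% lower). The 477 were called from these same libraries, so this separation follows largely from the selection and is no separate support. Over all genes the median change was 0. The count rested on all 8 libraries: it was 63, 40, 197 and 110 without 24-month libraries 1 to 4, and 34, 186, 26 and 107 without 30-month libraries 1 to 4. It was 750 without 6-month library 3, which is of neither age compared but enters the estimate of the spread and the filter on low reads. Of 24 leading genes, the 12 largest changes in each direction under the rule for naming, 7 passed under all 28 alternatives: Tfr2, Slc25a34, Tmem82, Nnat, Slc6a13, Phgdh and Igfals. Each of the other 17 missed 0.05 when at least 1 of the 8 libraries was left out, and none turned its direction. The rule for naming requires that the ages do not overlap, so every leading gene lacks overlap by selection.

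**Figure D1:**
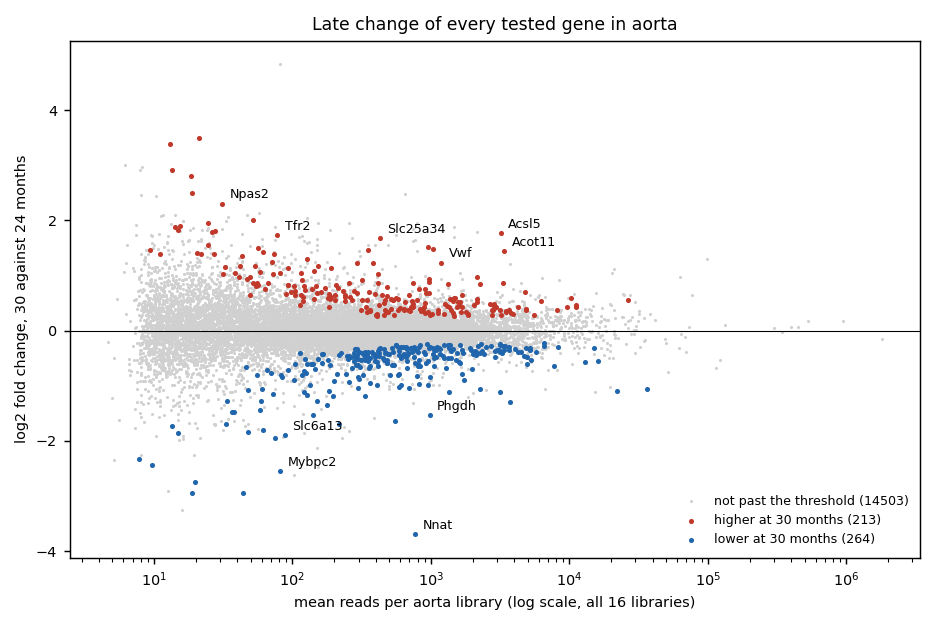
Each point is a gene tested in aorta, placed by its mean reads per library over 16 libraries (x, log scale) and its log2 fold change of 30 against 24 months (y). The 213 genes higher and 264 genes lower at 30 months are coloured, and Nnat lies lowest among them at -3.69.

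The largest fall was that of Nnat, which encodes neuronatin, a small membrane protein of the endoplasmic reticulum, and which is imprinted and read from the paternal copy. Nnat stood at 1242, 1221, 1052 and 1196 normalised reads in 24-month libraries 1 to 4 and at 63.65, 78.72, 155.7 and 84.43 in 30-month libraries 1 to 4. All 4 libraries of 30 months lay far below those of every younger age, since the 8 libraries of 6 and 15 months ran from 574.2 to 1416. The fall was 12.9-fold, a log2 change of -3.69 ± 0.28 (SE, n = 4 per age), with the smallest adjusted p of all genes (1.16e-05, limma-trend). Blcap, the gene within whose intron Nnat lies, was named after its values were seen: it went from 1249 to 1802 at 24 months to 1058 to 1107 at 30 months, a log2 difference of -0.38 ± 0.12 (adjusted p = 0.0807, limma-trend). Whether the counting used strand is not stated, so reads of the 2 overlapping genes may not be told apart.

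The 26 imprinted genes tested, a list put together after values had been seen, had a median of -0.14. Of them 4 fell (15.4%, against 1.76% of all genes) and 0 rose. Besides Nnat these were Magel2, Peg10 and Kcnq1ot1. Kcnq1ot1, the long antisense RNA of the Kcnq1 locus, went from 182.0, 212.3, 153.2 and 195.3 to 94.74, 110.6, 129.4 and 101.6 (log2 change -0.76 ± 0.16, adjusted p = 0.0221). Kcnq1 itself, which it overlaps, had a difference of the opposite sign, 0.83 ± 0.39 (adjusted p = 0.248), in libraries that overlapped between the ages. Peg10, a gene of retrotransposon origin active in the placenta, fell from 33.93 to 61.56 at 24 months to 12.76 to 27.14 at 30 months (-1.28 ± 0.32, adjusted p = 0.0434). Magel2, a regulator of protein ubiquitination, had at most 22.29 reads in any of the 8 libraries (-2.44 ± 0.60, adjusted p = 0.0415). Kcnq1ot1, Peg10 and Magel2 reached adjusted p of 0.0809, 0.119 and 0.113 with 1 library left out. Without 24-month library 3 or 30-month library 2 the count of imprinted genes that fell was 2, and without any other of the 8 libraries 1; Peg10 also missed the threshold with the replicate number as a block, and Magel2 with log2 depth as a covariate or a pseudocount of 5.

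Acsl5, Acot11 and Slc25a34 were among the genes that rose most. Acsl5, a ligase that activates long fatty acids by joining them to coenzyme A, was at 1384, 1545, 1593 and 1467 in the 24-month libraries and at 6475, 5257, 5135 and 3855 in the 30-month libraries. The ages did not overlap, and the rise was 3.41-fold (log2 change 1.77 ± 0.31, adjusted p = 0.0183). Acot11, a thioesterase that splits fatty acyl coenzyme A and is known from brown fat, was at 1523, 1597, 2124 and 1977 and then at 7020, 3371, 5251 and 4506. Its rise was 2.72-fold (1.44 ± 0.36, adjusted p = 0.0424). Both genes had at 15 months some libraries as high as those of 30 months, with highest values of 5282 for Acsl5 and 5590 for Acot11 over the 8 younger libraries. Slc25a34, a carrier of the inner mitochondrial membrane, went from 175.4, 212.3, 259.6 and 293.0 to 801.4, 674.4, 725.9 and 773.3. That is 3.21-fold (1.68 ± 0.26, adjusted p = 0.00793), and all 4 values of 30 months were above the 602.4 reached at 6 and 15 months. Acsl5 lost its call without 24-month library 2 or 30-month library 1 or 3 (adjusted p up to 0.064), and Acot11 without any 1 of the 8 libraries (up to 0.129).

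Of 26 markers of brown fat and of fat cells in general 1 passed, a share of 3.85% against 3.18% of all genes. Ucp1 was at 29459, 39081, 58426 and 56436 at 24 months and at 102753, 69646, 86797 and 89073 at 30 months. The ages did not overlap, yet the difference of 0.97 ± 0.30 missed the threshold (adjusted p = 0.0851). Elovl3, a fatty acid elongase of brown fat, went from 120.4, 220.8, 223.0 and 417.4 to 2017, 1115, 1209 and 862.6 (2.47 ± 0.67, adjusted p = 0.0549). Of 11 brown adipocyte markers 0 passed in limma-trend, 3 were higher at an unadjusted p under 0.05, edgeR called 0, DESeq2 2 and limma-voom 3, all higher. The median of these 11 was 0.08. Of 15 general adipocyte markers 1 fell and 13 had negative values, with a median of -0.23 (edgeR with TMM scaling called 3 lower and with RLE scaling 2, DESeq2 3 and limma-voom 5). The called gene was Plin4, a coat protein of lipid droplets, at 14489, 13332, 13511 and 14310 and then at 8616, 8874, 8967 and 11121 (-0.57 ± 0.14, adjusted p = 0.0367). Adipoq, the hormone adiponectin, was at 20601 to 25034 and then at 15511 to 18491, again without overlap (-0.44 ± 0.12, adjusted p = 0.0533). The summed brown markers ran from 80970 to 129900 at 24 months and from 131300 to 172500 at 30 months, the summed adipocyte markers from 614700 to 707000 and from 513700 to 586300. The part of the fat content of the samples in these results was not tested. Plin4 missed the threshold without any 24-month library or without 30-month library 1, 2 or 3 (adjusted p up to 0.11), and with no filter on low values.

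**Figure D2:**
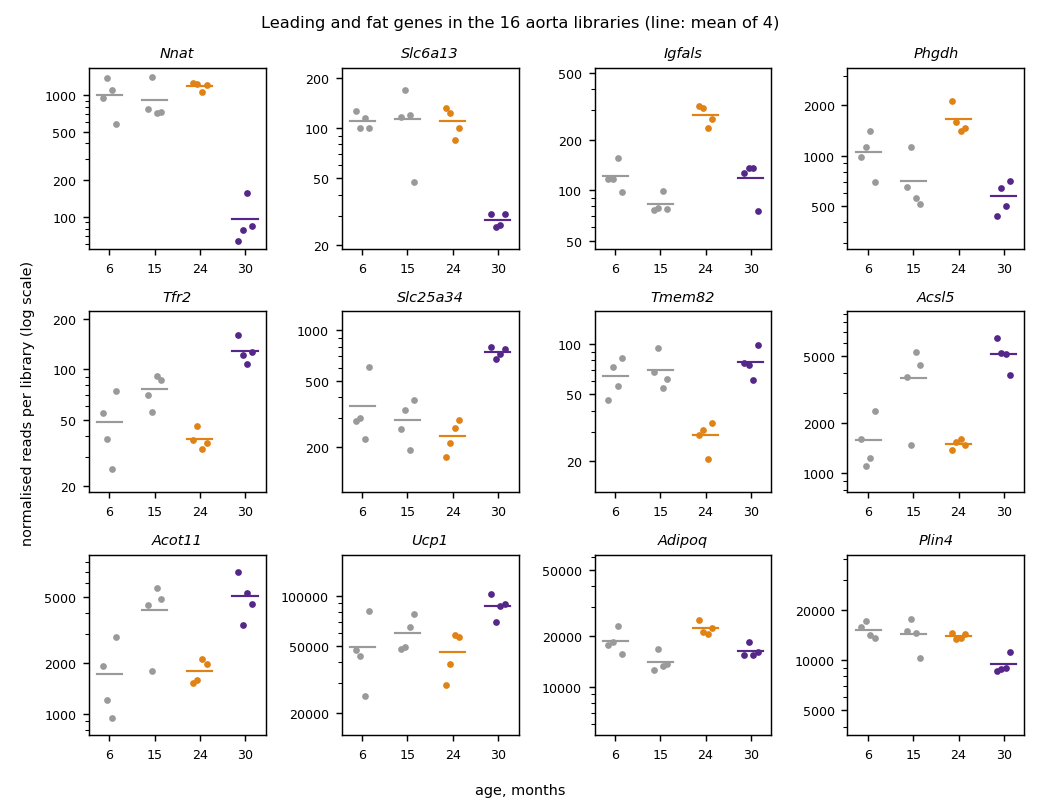
Normalised reads (y, log scale) of 12 genes in each aorta library at 6, 15, 24 and 30 months (x), with 4 points per age and a line at their mean. Nnat and Slc6a13 drop at 30 months below every younger library, Igfals and Phgdh are high at 24 months, and the 30-month libraries lie above those of 24 months for Ucp1 and below them for Adipoq, neither past the threshold.

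Of 75 nuclear genes of fatty acid oxidation, the respiratory chain and the tricarboxylic acid cycle 2 passed, a share of 2.67% near the 3.18% of all genes, and 63 had positive values. Of 22 genes of fatty acid oxidation 1 rose, 17 had positive values and the median was 0.14. The called gene was Decr1, an auxiliary enzyme for unsaturated fatty acids, which went from 7941 to 9536 up to 10939 to 12693 (0.43 ± 0.11, adjusted p = 0.0424). Of 37 nuclear genes of the respiratory chain 1 rose, Uqcrfs1, the iron-sulphur subunit of complex III, from 9297 to 10543 up to 12837 to 14722 (0.47 ± 0.12, adjusted p = 0.049). In that list 31 of 37 values were positive, and the median was 0.12. Of 16 genes of the tricarboxylic acid cycle 0 passed in limma-trend, 4 were higher at an unadjusted p under 0.05, and edgeR called 0, DESeq2 1 and limma-voom 2. For 16 genes of fatty acid and triglyceride synthesis these counts were 0, 6, 0, 0 and 6. Fasn, fatty acid synthase, led them at 33681 to 70186 and then 76700 to 156394 (1.29 ± 0.49, adjusted p = 0.154). The 13 genes of the mitochondrial genome had a median of 0.06, and 0 passed in limma-trend, at an unadjusted p under 0.05 or in edgeR, DESeq2 and limma-voom. Decr1 and Uqcrfs1 each missed the threshold without any 1 of the 8 libraries (adjusted p up to 0.129 and 0.139) and with log2 depth as a covariate, and edgeR with TMM scaling did not call Uqcrfs1.

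Many genes of protein synthesis fell. The ribosome is built in the nucleolus, where RNA polymerase I makes its RNA and a large set of assembly factors folds and trims the small and large subunits. Of 74 cytosolic ribosomal protein genes 18 fell and 0 rose, which is 24.3% against 1.76% of all genes, and all 74 values were negative with a median of -0.27. The 4 libraries of each age did not overlap in 68 of the 74, against the 9.77% of all genes that were lower without overlap. Their summed level ran from 351600 to 382200 at 24 months and from 293900 to 317300 at 30 months. At 6 months it ran from 304100 to 357900 and at 15 months from 259100 to 296900. Rpl23, of the large subunit, went from 7183, 7220, 6933 and 6584 to 5320, 5538, 5418 and 5230 (-0.38 ± 0.07, adjusted p = 0.0183). All 4 values of Rpl23 at 24 months were also above those of 6 and 15 months, which ended at 6426. Ribosomal protein genes have many near-identical pseudogenes, so that the value of each gene depends on how the authors' counting shared reads.

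Assembly factors of the ribosome fell too. Of 43 factors of the small subunit 14 fell (32.6%, against 1.76% of all genes) and 0 rose, with a median of -0.39. Of 35 factors of the large subunit 17 fell (48.6%) and 0 rose, with a median of -0.43. All 78 values were negative. The summed small subunit factors ran from 12870 to 16100 at 6 months and from 12120 to 15270 at 15 months. At 24 months the sum was 17170 to 18220, and at 30 months 13130 to 13860. For the large subunit the sums at these ages were 13350 to 17380, 13000 to 16780, 18430 to 19590 and 14090 to 14670. The 24-month sums thus lay above all others, and the 30-month sums within the range of 6 and 15 months. Utp18, part of the complex that first folds the small subunit's RNA, went from 335.6, 383.2, 372.8 and 332.1 to 272.4, 241.5, 270.2 and 211.7 (-0.52 ± 0.10, adjusted p = 0.0183). Nop2, a methylase of the large subunit's RNA, went from 474.9, 526.5, 456.3 and 541.8 to 290.6, 313.8, 333.2 and 332.8 (-0.65 ± 0.14, adjusted p = 0.0293). Mybbp1a, a nucleolar partner of the MYB protein, went from 807.8 to 860.6 down to 535.9 to 602.0 (-0.56 ± 0.10, adjusted p = 0.0183). Of 12 subunits of RNA polymerase I 3 fell, 25% against 1.76% of all genes. They were Cd3eap, from 142.9 to 159.3 down to 91.77 to 108.5 (-0.61 ± 0.12, adjusted p = 0.0183), and the catalytic core subunits Polr1a (-0.57) and Polr1b (-0.42).

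Other steps of making a protein were lower as well. Of 8 subunits of TRiC, the chamber that folds new actin and tubulin, 4 fell (Tcp1, Cct5, Cct7 and Cct8), 50% against 1.76% of all genes. In all 8 the ages did not overlap, against the 9.77% of all genes that were lower without overlap. Cct5 went from 2824, 2715, 2523 and 2620 to 2174, 2182, 2012 and 1881 (-0.37 ± 0.07, adjusted p = 0.0183). Of 20 cytosolic aminoacyl-tRNA synthetases, which load amino acids onto transfer RNA, 6 fell (30%) and 0 rose, with a median of -0.23. Of 13 subunits of the initiation factor eIF3 3 fell (23.1%) and 0 rose, with a median of -0.15. The summed synthetases were 15160 to 17320 at 6 and 15 months, 18580 to 19800 at 24 and 15970 to 16920 at 30. For eIF3 these sums were 18870 to 21550, 22840 to 23080 and 19240 to 20600. For TRiC they were 14310 to 19370, 18040 to 19020 and 13490 to 15360. For polymerase I they were 4134 to 5432, 5145 to 5438 and 4612 to 4888. Actb, cytoplasmic actin and a common reference gene, was named after its values were seen: it fell from 15330 to 18794 to 9986 to 12840 (-0.55 ± 0.14, adjusted p = 0.0434). The list of ribosomal proteins was set up with earlier results of these data known, and the lists of assembly factors, polymerase I, TRiC, synthetases and eIF3 were put together after values had been seen, so their counts are descriptions. Without 24-month libraries 1 to 4 the ribosomal proteins that fell were 0, 0, 7 and 2, and without 30-month libraries 1 to 4 they were 0, 4, 0 and 1, while the median of the list stayed between -0.30 and -0.25. Each of the genes named above from Rpl23 to Cct5 lost its call without 24-month library 2, and further ones without other libraries of either age (adjusted p up to 0.117). In these 8 fits the synthetases that fell were 0, or 1 without 24-month library 3, the eIF3 subunits and those of TRiC between 0 and 2, and the polymerase I subunits 0 or 1. Polr1a also missed the threshold with log2 depth as a covariate, and Polr1b, Cct8 and Eif3c with the replicate number as a block. The assembly factors that fell were between 1 and 8 for the small and between 0 and 3 for the large subunit in these fits. Their medians ran from -0.42 to -0.35 and from -0.45 to -0.39. Actb missed the threshold without any 1 of the 8 libraries (adjusted p up to 0.13) and with log2 depth as a covariate.

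**Figure D3:**
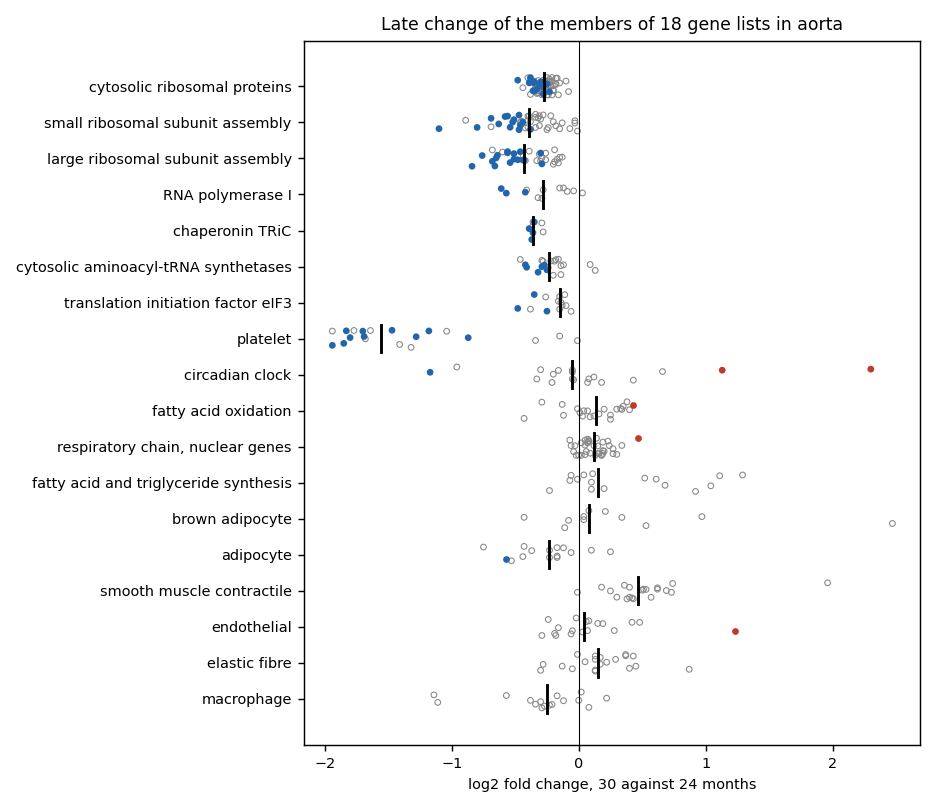
Log2 fold change of 30 against 24 months (x) for each member of 18 gene lists (y). Filled points passed the threshold (red higher, blue lower), open points did not, and the black bar is the list's median: all ribosomal proteins and assembly factors lie left of 0, while the platelet list has the lowest median, -1.56.

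Enzymes that supply serine and purines were among the leading genes that fell. Phgdh, which takes the first step from glycolysis to serine, was at 2121, 1583, 1414 and 1475 and then at 435.7, 642.5, 503.8 and 707.2. The ages did not overlap, and the fall was 2.89-fold (-1.53 ± 0.25, adjusted p = 0.00928). All 4 values of 24 months were above the 1412 that was the highest at 6 and 15 months. Psat1, the next enzyme of that path, was at 261.9 to 347.9 and then at 144.6 to 289.3, with overlap (-0.68 ± 0.22, adjusted p = 0.103). Of 14 genes of serine and one-carbon metabolism, a list put together after values had been seen, Phgdh was the 1 called gene. That is 7.14% against 3.18% of all genes, and 7 of the 14 values were positive. Impdh1, which commits purine synthesis to guanine nucleotides, went from 5493, 5108, 4108 and 4174 to 1565, 2180, 1721 and 2244 (-1.30 ± 0.26, adjusted p = 0.0207). It missed the threshold without 24-month library 1 or 2 or 30-month library 1 or 3 (adjusted p up to 0.0716).

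Other leading genes that fell act in transport, growth signals and development. Slc6a13, a transporter of GABA, went from 131.8, 123.1, 84.63 and 99.73 to 30.59, 25.53, 26.34 and 30.59, a 3.74-fold fall to below all younger libraries (-1.90 ± 0.28, adjusted p = 0.00721). Igfals, which binds insulin-like growth factors into a stable complex in blood, went from 319.5, 312.1, 235.6 and 265.3 to 126.8, 136.2, 135.1 and 74.64 (-1.28 ± 0.19, adjusted p = 0.00721). At 6 and 15 months it ran from 76.04 to 155.6, so that the 4 libraries of 24 months stood above all others. Tbx3, a transcription factor of embryonic patterning, went from 253.1, 226.1, 169.3 and 191.2 to 100.2, 102.1, 67.56 and 100.3 (-1.18 ± 0.25, adjusted p = 0.0266). Apold1, an immediate response gene of endothelial cells, went from 206.6, 148.6, 272.2 and 182.0 to 66.12, 49.99, 45.80 and 102.8 (-1.64 ± 0.35, adjusted p = 0.0266). At 6 and 15 months Apold1 had between 592.9 and 1854, above both older ages. Apoe, the carrier of lipids made by macrophages and liver, was named after its values were seen and went from 28364 to 39513 down to 12034 to 18150 (-1.09 ± 0.22, adjusted p = 0.0211). Tbx3, Apold1 and Apoe each missed the threshold without any 1 of 5 or more of the 8 libraries, at adjusted p up to 0.0887, 0.088 and 0.080; 24-month libraries 1 and 2 and 30-month libraries 1 and 3 were among them for all 3 genes.

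Mybpc2, a protein of fast skeletal muscle filaments, went from 101.4, 199.6, 109.8 and 183.0 to 24.67, 30.85, 16.03 and 24.47 (-2.55 ± 0.57, adjusted p = 0.0294). Skeletal muscle markers summed to 497.7, 915, 1327 and 5086 in 24-month libraries 1 to 4 and to 1683, 1154, 1911 and 784.3 in 30-month libraries 1 to 4. Acta1, skeletal muscle actin, was at 11.38, 360.9, 96.07 and 770.1 and then at 12.24 to 30.92 (-2.61 ± 0.88, adjusted p = 0.112). The part of skeletal muscle in the fall of Mybpc2 was not tested. Of 5 skeletal muscle markers tested limma-trend called 0, with 1 higher and 2 lower at an unadjusted p under 0.05, edgeR and DESeq2 each called 1 lower and limma-voom 1 higher. Mybpc2 missed the threshold without any 1 of the 8 libraries (adjusted p up to 0.0909).

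Platelet genes were lower at 30 months. Of 20 platelet genes, a list put together after values had been seen, 10 fell (50%, against 1.76% of all genes) and 0 rose. All 20 values were negative and the median was -1.56. Itga2b, the alpha chain of the fibrinogen receptor, went from 586.8, 559.4, 475.8 and 345.5 to 208.2, 211.7, 169.5 and 63.63 (-1.70 ± 0.38, adjusted p = 0.0293). Tubb1, the tubulin of platelets, went from 205.7, 229.3, 233.3 and 100.8 to 57.73, 75.52, 58.40 and 18.35 (-1.94 ± 0.42, adjusted p = 0.0264). Gp9, a subunit of the receptor for von Willebrand factor, went from 108.0 to 172.0 down to 18.35 to 61.70 (-1.80 ± 0.44, adjusted p = 0.0424). P2ry12, the platelet receptor for ADP, went from 84.37 to 123.1 down to 23.25 to 59.21 (-1.28 ± 0.31, adjusted p = 0.0403). All 4 of these genes were higher in every 24-month library than in any library of 6 or 15 months, where Itga2b reached 173.0 and Tubb1 36.73.

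Summed platelet genes and summed red cell genes differed between the libraries. The summed platelet genes were 3934, 4904, 3868 and 3189 at 24 months and 2042, 2453, 1817 and 1335 at 30 months. The 5 red cell genes had negative values too, with a median of -1.07, or -0.53 without 24-month library 1. Their sum was 102900, 31980, 21150 and 19160 at 24 months and 11930, 15790, 19910 and 17270 at 30 months, with the highest value in 24-month library 1. Of 5 red cell genes 0 passed in limma-trend, 1 was lower at an unadjusted p under 0.05, and edgeR, DESeq2 and limma-voom called 0. Tfrc, the transferrin receptor of immature red cells and dividing cells, was also highest in that library, at 7342 against 1555 to 2063 in the other 24-month libraries (-1.21 ± 0.51, adjusted p = 0.193). Without 24-month library 1 the median of the platelet list was -1.59. Itga2b, Tubb1, Gp9 and P2ry12 each missed the threshold without any of 6 or more of the 8 libraries, at adjusted p up to 0.0875, 0.0832, 0.108 and 0.11. The part of blood left in the vessels in these results was not tested. The count of platelet genes that fell was 0 without 24-month library 1, 2 or 3 or without 30-month library 1, 3 or 4, it was 1 without 24-month library 4 and 3 without 30-month library 2, and the median stayed between -1.78 and -1.18.

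In the clock of the cell 2 activator genes rose and 1 repressor gene fell. In it the activators CLOCK or NPAS2 pair with BMAL1, the product of Arntl, and switch on Per and Cry genes from E-box sites, whose products then silence the activators. Arntl and Npas2 are in turn held down by REV-ERB receptors and raised by ROR receptors, which share a binding site. These stretches of RefSeq promoters on GRCm38.p6 are shown because they hold the letters of such sites in 2 of the 3 clock genes that changed, printed 5′ to 3′ on the gene's strand. Capitals mark AGGTTA or AGGTCA, the core letters of the receptor site, in Arntl and CACGTG, the E-box, in Cry1.
Arntl, chr7:113207494-113207523, plus strand: tggtcggaaagtAGGTTAgtggtgcgacat
Arntl, chr7:113207530-113207559, plus strand: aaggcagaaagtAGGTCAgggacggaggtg
Cry1, chr10:85185097-85185126, minus strand: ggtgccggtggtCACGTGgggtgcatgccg
In windows of 300 bases around gene starts, both strands read, CACGTG occurs in 7.15% of 32851 windows and AGGTCA or AGGTTA in 23.1%. Of 19 clock genes 16 had a window, 21 windows in all. In at least 1 of their windows 5 of the 16 genes held CACGTG and 5 held AGGTCA or AGGTTA. These counts are per gene and the percentages per window, so they are not directly comparable. The letters describe the promoters and were not tested as binding sites.

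Of the 19 clock genes 2 rose and 1 fell, 15.8% against 3.18% of all genes, and the median was -0.05. The hour of collection is not stated in the labels, and its part in these values was not tested. Npas2 was at 7.583, 3.184, 6.862 and 6.169 at 24 months and at 37.50, 34.04, 38.93 and 20.80 at 30 months (log2 change 2.30 ± 0.35, adjusted p = 0.00721). At 6 and 15 months it ran from 22.73 to 63.97, so that the 24-month libraries were the low ones. Arntl was at 43.61, 44.58, 30.88 and 70.94 and then at 99.68, 124.5, 89.31 and 91.77 (1.13 ± 0.26, adjusted p = 0.0347). Cry1, a repressor, was at 167.8, 237.8, 204.7 and 212.8 and then at 122.9, 74.46, 91.60 and 78.31 (-1.17 ± 0.19, adjusted p = 0.0097), and at 30 months its values lay within those of 6 and 15 months (66.80 to 130.2). Per2, another repressor, was at 778.3, 1001, 1016 and 995.2 and then at 503.3, 401.0, 421.4 and 641.1, without overlap but short of the threshold (-0.96 ± 0.26, adjusted p = 0.052). It passed in 11 of 28 alternatives. Of the clock genes edgeR and DESeq2 called 2 higher and 2 lower each, and limma-voom 2 higher and 3 lower. Per3, Dbp and Nr1d1, chosen after their values were seen, differed by 0.08 ± 0.23, -0.05 ± 0.18 and 0.43 ± 0.17 (adjusted p = 0.885, 0.926 and 0.175). Cry1 passed in all 28 alternatives and Npas2 in the 27 that tested it, since its mean was under the filter of 50 reads. Arntl missed the threshold without 24-month library 1, 2 or 3 or without any 30-month library (adjusted p up to 0.0938).

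**Figure D4:**
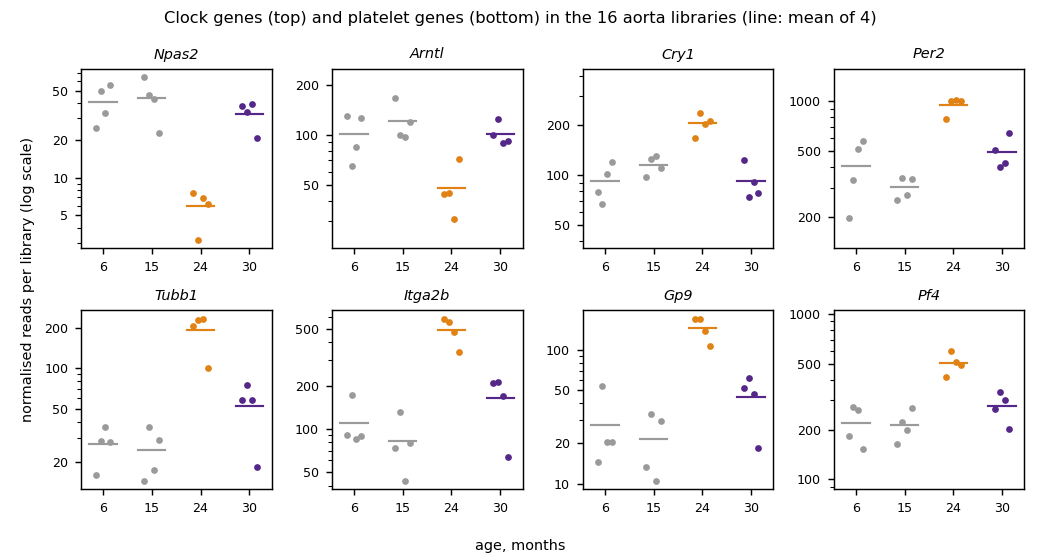
Normalised reads (y, log scale) of 4 clock genes and 4 platelet genes in each aorta library by age in months (x), with a line at the mean of 4. The 24-month libraries are the lowest of all ages for Npas2 and the highest for Cry1, Per2 and the platelet genes.

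Among endothelial and vasoactive genes 2 rose. Vwf, von Willebrand factor, which tethers platelets to an injured wall, was at 915.7, 778.0, 672.5 and 597.4 and then at 1716, 1615, 2055 and 1543. The ages did not overlap, and the rise was 2.35-fold (1.23 ± 0.23, adjusted p = 0.0183). It was the 1 gene called of 18 endothelial markers (5.56%, against 3.18% of all genes), whose median was 0.05. Pecam1 and Cdh5, a junction cadherin, differed by 0.28 ± 0.15 and 0.15 ± 0.16 (adjusted p = 0.317 and 0.664). Edn1, the vasoconstrictor peptide endothelin 1, rose from 54.03, 42.46, 22.87 and 52.44 to 95.73, 88.29, 88.17 and 66.07 (1.02 ± 0.23, adjusted p = 0.0313). It was the 1 called of 21 genes of angiotensin, natriuretic and other vasoactive signals (4.76%). Vwf missed the threshold without 24-month library 2 or 30-month library 1 or 3 (adjusted p up to 0.064), Edn1 without 24-month library 1, 2 or 3 or 30-month library 1, 2 or 3 (up to 0.0961).

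Of 74 contractile, elastic fibre, collagen and collagen processing genes 2 passed, 2.7% against 3.18% of all genes. Of 20 smooth muscle genes 0 were called by limma-trend, although 19 had positive values with a median of 0.47, and 8 were higher at an unadjusted p under 0.05. For them edgeR called 0, and DESeq2 and limma-voom 2 each, higher. Acta2 and Myh11, smooth muscle myosin, differed by 0.25 ± 0.24 and 0.40 ± 0.26 (adjusted p = 0.609 and 0.42). The summed level of the list ran from 66440 to 110500 at 24 months and from 95290 to 140400 at 30 months, with overlap. Of 20 elastic fibre genes 0 passed, with 5 higher and 1 lower at an unadjusted p under 0.05, and edgeR called 0, DESeq2 2 higher and limma-voom 3 higher and 1 lower. Eln, elastin, was at 2346, 4297, 2842 and 3039 and then at 4259, 6820, 4792 and 7020 (0.87 ± 0.28, adjusted p = 0.0993). Of 19 collagen chains 0 passed, with 1 higher and 1 lower at an unadjusted p under 0.05, and edgeR and DESeq2 called 0 and limma-voom 1 lower. Among 15 genes that process collagen 2 fell, the lysyl hydroxylases Plod1 (-0.38 ± 0.09, adjusted p = 0.0434) and Plod3 (-0.33 ± 0.08, adjusted p = 0.0401). Plod1 kept its call without 24-month library 1 and Plod3 without 30-month library 2, and both missed the threshold without any other of the 8 libraries, at adjusted p up to 0.117 and 0.128.

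Of 151 genes in the 10 immune lists 2 passed, 1.32% against 3.18% of all genes. For 16 macrophage markers limma-trend called 0, 1 was lower at an unadjusted p under 0.05, edgeR called 0, and DESeq2 and limma-voom 1 each, lower; the median was -0.25. Of 13 markers of T and NK cells, 8 of B cells and 14 of plasma cells 0 passed in limma-trend, at an unadjusted p under 0.05, or in edgeR, DESeq2 and limma-voom. For 30 interferon response genes limma-trend called 0, with 1 higher at an unadjusted p under 0.05, edgeR 0, and DESeq2 and limma-voom 1 each, higher. For 19 complement genes limma-trend called 0, with 2 higher and 1 lower at an unadjusted p under 0.05, edgeR 0, DESeq2 1 higher and limma-voom 2 in each direction. Of 5 neutrophil genes 1 rose, Ngp, a granule protein, at 5.688, 0, 0 and 0 and then at 31.09, 35.10, 19.47 and 2.447 reads, with overlap (adjusted p = 0.0491). It missed the threshold in 18 of 26 alternatives, edgeR included. Ccl11, the chemokine that draws eosinophils, fell from 532.7 to 663.3 to 386.6 to 442.1 (-0.53 ± 0.12, adjusted p = 0.0342). It was the 1 called of 20 chemokine and adhesion genes and missed the threshold without any 1 of the 8 libraries (adjusted p up to 0.0973). For 21 cell cycle inhibitors and p53 targets limma-trend called 0, with 3 higher and 3 lower at an unadjusted p under 0.05, edgeR 0, DESeq2 1 lower and limma-voom 3 in each direction.

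Tfr2, Hfe, Sgk1 and Gpx3 were also called. Of 11 genes of iron handling, a list without Tfr2, 1 rose (Hfe) and 7 had negative values, with a median of -0.13. Of 12 glucocorticoid and metallothionein genes 1 fell (Sgk1) and 8 had positive values, and of 16 antioxidant genes 1 fell (Gpx3). These single calls are 9.09%, 8.33% and 6.25% of their lists, against 3.18% of all genes. Tfr2, transferrin receptor 2, by which cells sense iron in blood, was at 37.92, 45.64, 33.17 and 35.99 and then at 160.4, 122.3, 107.6 and 126.0. The rise was 3.31-fold (1.73 ± 0.26, adjusted p = 0.00721), and the 30-month libraries were above all others, of which the highest had 90.68. Hfe, its partner in iron sensing, went from 513.8 to 587.1 up to 674.4 to 737.8 (0.40 ± 0.07, adjusted p = 0.0183). Sgk1, a kinase switched on by glucocorticoids and mineralocorticoids, fell from 1269 to 2049 to 586.2 to 1029 (-1.11 ± 0.23, adjusted p = 0.0231). Gpx3, the glutathione peroxidase of plasma, fell from 44481 to 69703 to 22909 to 29734 (-1.05 ± 0.24, adjusted p = 0.0305). Hfe, Sgk1 and Gpx3 missed the threshold without 24-month library 1 or 2 or 30-month library 1 or 3, among others (adjusted p up to 0.0663, 0.0806 and 0.0911).

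Other leading genes that rose have varied roles. Aspg, an asparaginase, went from 493.9, 555.1, 839.4 and 989.1 to 2129, 1909, 1997 and 1728 (1.48 ± 0.33, adjusted p = 0.0294), above all younger libraries. Tmem82, a membrane protein, went from 20.59 to 33.93 up to 60.69 to 99.11 (1.42 ± 0.23, adjusted p = 0.00867), with 46.43 to 94.04 at 6 and 15 months. Poln, a DNA polymerase for damaged templates, went from 156.0 to 251.6 up to 498.9 to 565.0 (1.47 ± 0.26, adjusted p = 0.0183). Ptgds, which makes prostaglandin D2, Map2k6, a kinase upstream of p38, Kcp, a secreted modulator of BMP signals, and Arhgef19, a guanine nucleotide exchange factor, rose by 1.5, 1.39, 1.29 and 1.24 on the log2 scale (adjusted p = 0.0434, 0.0434, 0.0258 and 0.0304). Poln missed the threshold without 24-month library 2 or 30-month library 1 or 3 (adjusted p up to 0.064). Ptgds and Map2k6 missed it without any 1 of the 8 libraries, Map2k6 also with log2 depth as a covariate, and Aspg, Kcp and Arhgef19 without 6 of them each, among them 24-month libraries 1 and 2 and 30-month libraries 1, 3 and 4 (up to 0.119, 0.134, 0.0892, 0.0851 and 0.0878).

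Set beside the younger ages, the late change did not always carry a gene outside its earlier range. Of the 12 leading genes that rose, the 24-month libraries lay below all libraries of 6 and 15 months for 4, and the 30-month libraries above all of them for 4. Of the 12 that fell, the 24-month libraries lay above all younger ones for 6, and the 30-month libraries below all of them for 4. Apold1 had its 24-month libraries below the younger ones as well. For Phgdh the log2 change from 15 to 24 months was 1.27 (adjusted p = 0.00426) and from 6 to 30 months -0.86 (adjusted p = 0.0515), and for Igfals these were 1.76 (adjusted p = 0.000257) and -0.06 (adjusted p = 0.877). For Npas2 they were -2.66 (adjusted p = 0.000586) and -0.28 (adjusted p = 0.666), and for Rpl23 0.52 (adjusted p = 0.000632) and -0.10 (adjusted p = 0.438). For Nnat they were 0.44 (adjusted p = 0.342) and -3.39 (adjusted p = 3.47e-05). Over all genes of the aorta 1733 passed between 15 and 24 months (11.6%) and 849 between 6 and 30 months (5.67%). These comparisons share the 24-month or the 30-month libraries with the late one, so the values are given side by side only.

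Whether the late change differed from that of the other tissues was tested as the aorta's change minus the mean change of brain, heart, kidney, liver, lung, muscle and skin, over 64 libraries and the 11444 genes that passed the filter in all 8 tissues. In that test 722 genes passed (6.31%), 359 in the higher and 363 in the lower direction for aorta. For Acsl5 the difference was 1.88 ± 0.20 (adjusted p = 6.5e-09, limma-trend), with 1.77 in aorta and between -0.55 in liver and 0.27 in skin elsewhere. For Acot11 it was 1.64 ± 0.20 (adjusted p = 9.47e-08), with a mean of -0.20 in the other tissues. Vwf (1.06 ± 0.18, adjusted p = 1e-04), Impdh1 (-1.28 ± 0.17, adjusted p = 7.76e-07), Cct5 (-0.37 ± 0.07, adjusted p = 0.00048) and Rpl23 (-0.41 ± 0.12, adjusted p = 0.0245) also passed. Cry1 (-0.86 ± 0.35, adjusted p = 0.134), Arntl (0.57 ± 0.41, adjusted p = 0.483) and Utp18 (-0.50 ± 0.17, adjusted p = 0.0583) did not. For Arntl the change was 1.13 in aorta, and in the other tissues it ran from 0.06 in kidney to 1.28 in liver. For Cry1 it was -1.17 in aorta, and elsewhere it ran from -0.83 in kidney to -0.10 in muscle. The spread in this test is shared by all 8 tissues and was smaller than that of aorta alone for Acsl5, with an SE of 0.20 against 0.31. For a gene that varies more in aorta than elsewhere, the p-value of this test is too small. The count of 722 may therefore be too high. The count was 391 and 416 without 24-month aorta libraries 1 and 2, 388 and 410 without 30-month aorta libraries 1 and 3, and 1251 without the 24-month heart library 4.

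Nnat, Phgdh and Npas2 were too low for the filter in at least 1 other tissue and were not part of that test. The values of Nnat and Npas2 are given with no test, since changes of genes with few reads are pressed towards 0 on this scale. For Nnat the log2 difference of 30 against 24 months was -0.30 in brain, -1.76 in heart, -2.58 in kidney and 0.47 in liver. In lung it was -0.97, in muscle -1.82, in skin -1.56 and in aorta -3.69. It was thus negative in 6 of the 7 other tissues. For Npas2 the difference was 0.25 in brain, 1.04 in heart, 0.06 in kidney and 1.25 in liver. In lung it was -0.03, in muscle 0.49 and in skin 0.74.

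**Figure D5:**
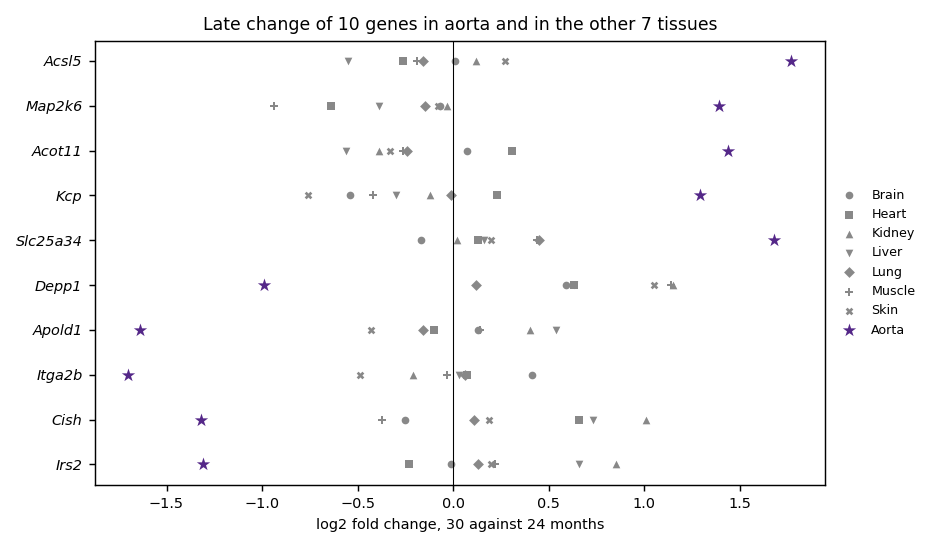
Log2 fold change of 30 against 24 months (x) for 5 genes higher and 5 lower in aorta relative to the other tissues (y), with stars for aorta and grey symbols for each other tissue. The star of Acsl5 lies at 1.77, while the other 7 tissues run from -0.55 to 0.27.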

How the data were processed

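Per the labels' protocols, frozen tissue was pulverised, RNA taken up in RNAiso Plus and sequenced as Illumina Stranded mRNA Prep libraries. Per the submitters' processing notes the tools were STAR, RSEM, FastQC and DESeq2, for which no version is named, and the build was GRCm39. No annotation is named. The authors deposited per tissue a table of 55285 gene symbols with a normalised signal per library. Dividing each library by its smallest step gave whole reads for 100% of values (tolerance 0.01 reads), so the signal is reads over 1 size factor per library. RSEM reports estimated counts, which these whole reads would be after rounding.

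Genes were kept by filterByExpr with a minimum count of 10 reads. The main test was limma-trend (limma 3.58.1, R 4.3.3) on log2(value + 1) with a mean for each age over all 16 aorta libraries, two-sided, with Benjamini-Hochberg adjustment over 14980 genes at 0.05. Fold changes are on the log2(value + 1) scale and understate low genes. The test across tissues used the same method on 64 libraries; each tissue was normalised separately, so only changes within a table were compared. On simulated data with these means and depths, 46.3%, 86.6% and 100% of genes changed 1.5-, 2- and 4-fold were called, and 2.52% of calls were false (14980 genes). Alternatives used edgeR 4.0.16, DESeq2 1.42.0, limma-voom, scaling, filters, pseudocounts, a block, depth and leaving out libraries.

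Leading genes were the 12 highest and 12 lowest changes among called genes without overlap between the ages whose mean was at least 50 reads, leaving out predicted genes and immunoglobulin and T cell receptor segments. From each of 47 lists up to 4 members with the smallest adjusted p could be named, with a fixed panel of aortic genes; 9 further lists and the genes said to be so were chosen after values were seen. The members and lists were chosen with earlier results of these data known. Lists are described by counts and medians, with no set test. Promoter windows were taken from RefSeq and their coordinates are on GRCm38.p6, not on the authors' build. Figures were drawn with matplotlib. A few genes that the rule names are not reported here, though they stay in the fits and counts.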

Additional observations from a re-analysis of the deposited data

Results flagged for a closer look

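In 9 of 148 groups of 4 libraries, over 74 genes named above, 1 library stood apart from the other 3 by Dixon's test; chance gives about 1 in 20. In 24-month library 1, Tfrc was at 7342 against 1555 to 2063, Per2 at 778.3 against 995.2 to 1016, Polr1a at 422.8 against 540.9 to 552.1, Ngp at 5.688 against 0 in the others and Plod1 at 881.6 against 1073 to 1099. In 24-month library 3, Myh6 was at 6283 against 19.91 to 972.6. In 30-month library 4, Igfals was at 74.64 against 126.8 to 136.2 and Plin4 at 11121 against 8616 to 8967, and in 30-month library 3, Tbx3 was at 67.56 against 100.2 to 102.1.

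Among the 722 genes whose late change in aorta differed from the mean of the other 7 tissues (limma-trend, Benjamini-Hochberg adjustment over 11444 genes), 10 of those with the largest differences are given, 5 higher and 5 lower. Higher in aorta were Acsl5 by 1.88 (adjusted p = 6.5e-09), Map2k6 by 1.72 (0.000201), Acot11 by 1.64 (9.47e-08), Kcp by 1.56 (0.000463) and Slc25a34 by 1.51 (0.00316). Against heart and lung only, Slc25a34 missed the threshold (adjusted p = 0.0929). Lower were Depp1 at -1.75 (adjusted p = 0.0328), Apold1 at -1.71 (0.0207), Itga2b at -1.68 (0.00192), Cish at -1.62 (0.0263) and Irs2 at -1.57 (0.0324). In aorta alone Depp1, Cish and Irs2 did not pass (adjusted p = 0.0765, 0.284 and 0.148). Against heart and lung only, Itga2b, Depp1, Cish and Irs2 missed the threshold (adjusted p = 0.0633, 0.0791, 0.183 and 0.214). With 1 aorta library left out, Depp1, Apold1, Cish and Irs2 reached adjusted p of 0.13, 0.0748, 0.193 and 0.17; the libraries were 24-month 1 and 4 and 30-month 1 to 4 for Depp1, 24-month 1 and 3 and 30-month 2 and 3 for Apold1, 24-month 2 and 30-month 2 and 4 for Cish, and 24-month 3 and 4 and 30-month 1 to 3 for Irs2.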

How the results depend on the processing

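The count of 477 genes depended on the test and on the libraries. DESeq2 called 1092 (511 higher, 581 lower), limma-voom with quality weights 2278 (1044 higher, 1234 lower), a fit of the 2 ages alone 1672 (811 higher, 861 lower) and limma-trend with no filter on low values 222 (99 higher, 123 lower); the cause was not tested. Leaving out 1 library gave between 26 and 750 genes, with 9 to 356 higher and 17 to 394 lower. edgeR called 486 with TMM and 475 with RLE scaling, and TMM scaling in limma 473, a mean of 50 or more reads 512, pseudocounts of 0.1 and 5 459 and 492, and depth as a covariate 400. Of 672 pairs of a leading gene and an alternative 115 missed the threshold and 0 turned direction. The test across tissues called 722 genes, 2241 with limma-voom, 321 against heart and lung only and 388 to 1251 without 1 of the 8 aorta libraries or without the 24-month heart library 4. Deviations of same-numbered aorta libraries of 24 and 30 months correlated at -0.312, 0.00206, 0.372 and -0.0401, and 1 of 4 correlated best with its own number. Libraries of different ages cannot share a mouse, so these values do not bear on pairing across tissues. Whether a number marks 1 mouse across tissues was not tested, and the test across tissues treated its libraries as independent. With the replicate number as a block 496 genes passed (228 higher, 268 lower), and 772 in the test across tissues. At these depths and group sizes small changes can be missed: on simulated data over 14980 genes 46.3% of 1.5-fold changes were called.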
